A study of Rattus norvegicus with 16 samples.

Results

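The let-7 family is a group of short regulatory RNAs (microRNAs) that share the same targeting sequence, and it was followed here in blood plasma and kidney of rats with contrast-induced acute kidney injury (CI-AKI) and of their controls. The members were chosen by name on a rat microarray: rno-let-7a, rno-let-7b, rno-let-7c, rno-let-7d, rno-let-7e, rno-let-7f, rno-let-7i and rno-miR-98, 8 of the 350 microRNAs it measured. The prefix rno, for the rat, is left out below. Names carrying an asterisk, which denote the opposite strand of the same hairpin, were not members and are described separately. The array held 0 probes named let-7g.

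All animals were male Sprague-Dawley rats of 250 to 300 g, their age not given in the sources used here, and every rat went without water for 3 days and was then injected with furosemide, a loop diuretic, at 10 mg/kg. The CI-AKI rats next received Omnipaque, a non-ionic iodinated contrast medium with 350 mg iodine per ml, by tail vein at 10 ml/kg, and the controls received the same volume of saline, so the control rats were dehydrated and diuretic-treated too. Blood and kidney were taken 8 h later. Each pool joined the RNA of 3 rats, with 4 pools in each of 4 groups (plasma control, plasma CI-AKI, kidney control, kidney CI-AKI), and each of the 16 pools was read on 1 one-colour array, so the spread between pools is that of 3-rat averages and not of single animals.

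MicroRNAs bind messenger RNAs mainly through their seed, the bases next to the 5′ end, and lower the output of those messages. The let-7 family is abundant in most differentiated tissues, and its known targets include messages of Ras proteins, Hmga2 and Lin28, while Lin28 proteins in turn block the maturation of let-7 precursors. Several genes encode the family, some of them side by side in clusters that are transcribed together, and miR-98 belongs to it by sequence although it carries another name.

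The mature sequences are shown because they bear on how far the array could tell members apart. All 8 members matched an entry in RefSeq (rat build GRCr8), each 22 bases long, and capitals mark the seed, bases 2 to 8.

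let-7a: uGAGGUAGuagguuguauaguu
let-7b: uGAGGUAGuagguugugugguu
let-7c: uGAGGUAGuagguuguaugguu
let-7d: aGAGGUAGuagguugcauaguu
let-7e: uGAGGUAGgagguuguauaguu
let-7f: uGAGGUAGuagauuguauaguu
let-7i: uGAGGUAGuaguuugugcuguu
miR-98: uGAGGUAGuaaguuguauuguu

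The 8 members had 1 seed between them, GAGGUAG, which 9 of the 693 mature rat names in RefSeq carry. With positions counted from 1 at the 5′ end and the base of let-7a written first, let-7c differed from let-7a by A19G alone, let-7e by U9G alone and let-7f by G12A alone. let-7b differed by A17G and A19G, let-7d by U1A and U16C, and miR-98 by G11A and A19U. let-7i was the most distant from let-7a, with G12U, A17G, U18C and A19U. No substitution lay in the seed. Whether the probes separate members that differ by 1 base was not tested, and a signal given for such a member may include some of its neighbour.

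In GRCr8 the genes of let-7a-1 (mature sequence at chr17:16320145-16320166, plus strand), let-7f-1 and let-7d lay together on chromosome 17, with mature sequences starting 363 and 2128 bases after that of let-7a-1. let-7c-2 and let-7b started 408 bases apart on chromosome 7, and let-7f-2 and miR-98 started 611 bases apart on the X chromosome. let-7e (chr1:67350243-67350264, plus strand) stood between miR-99b, 173 bases before it, and miR-125a, 446 bases after it. The second let-7a gene followed miR-100 on chromosome 8 at 6912 bases, and let-7c-1 and miR-125b-2 lay 44461 bases apart on chromosome 11. let-7i (chr7:60527935-60527956, minus strand) was the member with none of these genes beside it.

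The 8 plasma arrays lay on one slide and the 8 kidney arrays on another, so tissue and slide cannot be told apart. Control pools lay in the odd slide columns and CI-AKI pools in the even ones on both slides, so treatment and column cannot be told apart either. The plasma pools numbered 4 stood apart from the rest. They had 84 (control) and 95 (CI-AKI) detected microRNAs, against 156 to 211 on the other plasma arrays and 169 to 216 on the kidney arrays. Their total microRNA signals were 3484 and 7068, against 24171 to 123239 on the other plasma arrays. The scaled values given for them below are therefore dim signals that the scaling raised. Tissue differences, plasma treatment differences and plasma correlations are also given without them. The letter codes in the labels mark 8 letters, of which 6 carry opposite treatments in plasma and kidney, so pools of the 2 tissues were not treated as the same rats. Marker microRNAs followed the labelled tissues. In control pools the kidney epithelial markers miR-194, miR-200a, miR-200b, miR-429 and miR-192 were higher in kidney (5 of 6 passed the test, miR-204 did not), and the liver marker miR-122, detected on all plasma control arrays, was detected on no kidney array. The summed signal of the erythroid markers miR-451 and miR-144 was 5425 to 8938 in plasma control pools and 105.4 to 227 in kidney control pools, and that of the 4 leukocyte markers was 4724 to 6231 and 244 to 281. The part that blood cells of either sample had in the let-7 signals was not tested.

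let-7a, let-7b, let-7c, let-7d, let-7f and let-7i were detected on all 16 arrays. let-7e was not detected on either plasma pool 4 array, and miR-98 was not detected on the plasma CI-AKI pool 4 array; there their spots gave a signal that was not called above background. Values below are spot signals scaled to the 75th percentile of each array within one comparison, so the same pool can have a different value in another comparison. That percentile is taken over microRNAs detected on all arrays compared, so leaving out a plasma pool 4 array changes the set. Differences without such an array thus include a shift common to the microRNAs compared, beside any effect of the pool itself. Signals of different members come from different probes and are not ranked against each other.

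**Figure D1:**
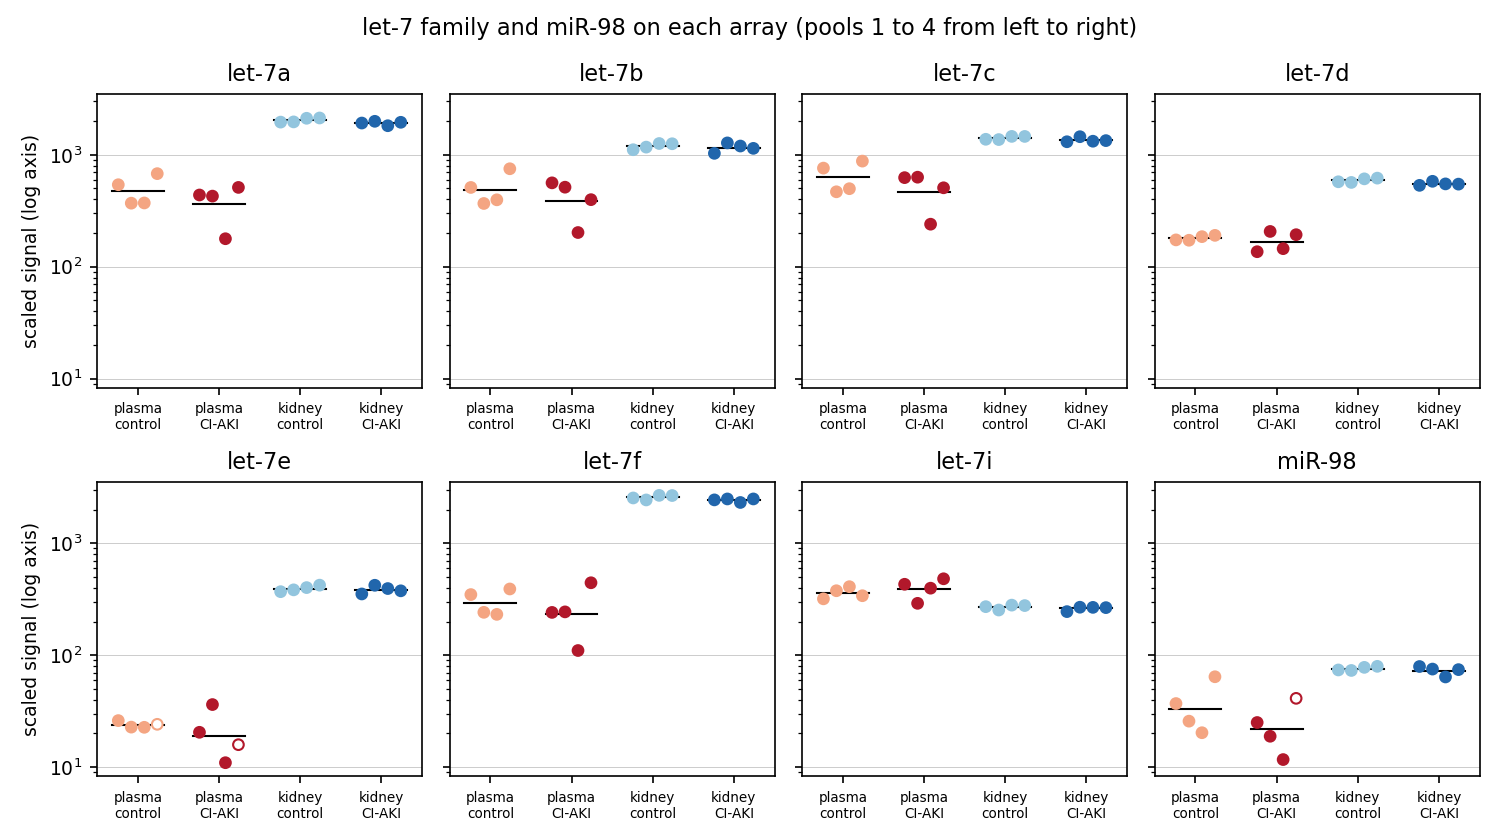
Scaled signal (log axis, all 16 arrays scaled together) of each member on every array; the 4 points of a group are pools 1 to 4 from left to right, open points were not detected, and lines are means of the log2 values. Kidney pools lie above plasma pools without overlap for let-7a, let-7b, let-7c, let-7d, let-7e and let-7f, and plasma CI-AKI pool 3 is the lowest plasma point for let-7a, let-7b, let-7c, let-7e, let-7f and miR-98.

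The first comparison set kidney against plasma in rats that received saline, and it placed 7 members higher in kidney and 1, let-7i, lower, though the directions of miR-98 and let-7i turned under other processing. In bulk samples such as these, fewer cells of a type and less RNA per cell cannot be told apart. The 7 differences ran from 2.27-fold for let-7c to 16.6-fold for let-7e. limma's moderated test with Benjamini-Hochberg adjustment over the 178 microRNAs tested passed all 8 members at 0.05, beside 77% of all those tested (33.1% higher and 43.8% lower in kidney). In none of the 8 did kidney and plasma pools overlap, which held for 79.2% of all tested. The median log2 difference of the members was 1.51, against -0.39 over all microRNAs tested. Because plasma and kidney differ in most microRNAs, the zero of this scale depends on how arrays are scaled. The median over all microRNAs was 0.59 with quantile normalization, 1.35 with no scaling, 0.20 with median scaling and 0.14 with the percentile taken over all microRNAs. The share of higher calls among all calls, 43.1%, became 59.3%, 78.9%, 54.2% and 51.8% under those settings, 21.9% with normexp background correction and 61.0% in the authors' deposited table. Measured from the median of all microRNAs in the same setting, let-7a, let-7b, let-7c, let-7d, let-7e, let-7f and miR-98 stayed above it in control pools under all 23 alternatives run (22 for let-7e). Normexp correction adds 50 units to every signal, and its values are given beside the results it moved.

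let-7e, transcribed with miR-99b and miR-125a, had the largest difference of the 8 in this scaling. Its signals were 26.9, 23.6, 23.6 and 25.0 in plasma control pools 1 to 4, the last of these not detected, and 388, 402, 415 and 439 in kidney control pools. let-7e was detected on all 4 control arrays only in kidney, so it entered this test through kidney alone, where its signal was high. Every kidney pool was far above every plasma pool, and the plasma pools were close to each other after scaling. Before scaling the plasma control signals were 22.3, 25.1, 35.1 and 1.15. The log2 difference was 4.05 (SE 0.11, limma adjusted p = 1.25e-08), rank 10 of 178, and 4.62 without plasma control pool 4. With normexp correction it was 1.82 (limma adjusted p = 0.0386), below let-7f at 2.84 and let-7a at 2.02, so the rank of let-7e among the members depends on how the background of its dim plasma signal is handled. Its own 2 probes gave 4.43 and 3.84.

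let-7f, made from a gene in the chromosome 17 cluster and another beside miR-98, gave 360.0, 251, 241 and 404 in plasma control pools and 2668, 2557, 2771 and 2773 in kidney control pools. The groups were well separated, with plasma pools 1 and 4 above pools 2 and 3. The log2 difference was 3.13 (SE 0.19, limma adjusted p = 1.19e-06), an 8.78-fold higher signal in kidney, and 3.84 without plasma control pool 4.

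let-7a, encoded beside let-7f and let-7d and again beside miR-100, gave 559, 384, 387 and 702 in plasma control pools and 2056, 2062, 2191 and 2214 in kidney control pools, a log2 difference of 2.12 (SE 0.21, limma adjusted p = 2.53e-05). Pools 1 and 4 were again the higher plasma pools. let-7d, the third member of that cluster, gave 179.5, 179, 193 and 197 in plasma and 602, 593, 630.0 and 642 in kidney, a log2 difference of 1.72 (SE 0.10, limma adjusted p = 1.07e-06). let-7d varied little between plasma control pools, with pool 4 beside the others. The 3 neighbours on chromosome 17 therefore differed between tissues by unequal amounts, 3.13, 2.12 and 1.72, although let-7a and let-7f each have a second gene elsewhere and the array reads only the sum of both genes.

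let-7b gave 528, 381, 412 and 777 in plasma control pools and 1165, 1227, 1304 and 1303 in kidney, a log2 difference of 1.31 (SE 0.23, limma adjusted p = 0.000815). let-7c, its cluster neighbour on chromosome 7, gave 786, 485, 518 and 909 in plasma and 1444, 1433, 1509 and 1515 in kidney, a log2 difference of 1.18 (SE 0.22, limma adjusted p = 0.0012). Both showed the same order of plasma pools, and their tissue differences were 0.083 apart on the mean of all 16 arrays scaled together. miR-98, encoded 611 bases from let-7f-2, gave 38.2, 26.7, 21.1 and 66.4 in plasma and 77.5, 76.5, 80.5 and 82.5 in kidney, a log2 difference of 1.20 (SE 0.33, limma adjusted p = 0.0104). Its plasma pools spread widest of the 8, with pool 4 near the kidney values. Its 2 probes gave 2.06 and 0.98, the second with overlapping groups, and with the brighter probe alone the test was missed (limma adjusted p = 0.0643, over alternatives 3.76e-05 to 0.796). With normexp correction its direction turned, to -0.18, and in CI-AKI pools to -0.15 (limma adjusted p = 0.796 and 0.803), so a higher level of miR-98 in kidney is not settled. Without plasma control pool 4 the differences of let-7a, let-7b, let-7c, let-7d and miR-98 were 2.86, 2.09, 1.91, 2.32 and 2.08. The scaling set changed with it, and all members moved upward, also let-7d, whose pool 4 lay beside the others. These values therefore do not show how far the signals of that pool alone moved the folds.

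let-7i, the member encoded apart from the rest, did not follow the others. Its signals were 329.8, 391, 427 and 352 in plasma control pools and 285, 265, 289.6 and 288 in kidney control pools. All kidney values were below all plasma values, by a narrow margin. The log2 difference was -0.40 (SE 0.12, limma adjusted p = 0.0139, over alternatives 0.00417 to 0.806), which lay at the median of all microRNAs tested. Its direction turned to 0.15 with quantile normalization, 1.62 with no scaling, 0.15 with the percentile over all microRNAs and 0.20 with median scaling. Without plasma control pool 4 the difference was 0.14. The 352 of that pool lay among the other plasma values, and leaving it out changed the scaling set, so this too is a change of scaling. The call was also lost with normexp background correction (-0.57), in the authors' deposited table (-0.04) and without kidney control pool 3 (-0.38). Whether let-7i is higher or lower in kidney is thus not settled by these data.

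**Figure D2:**
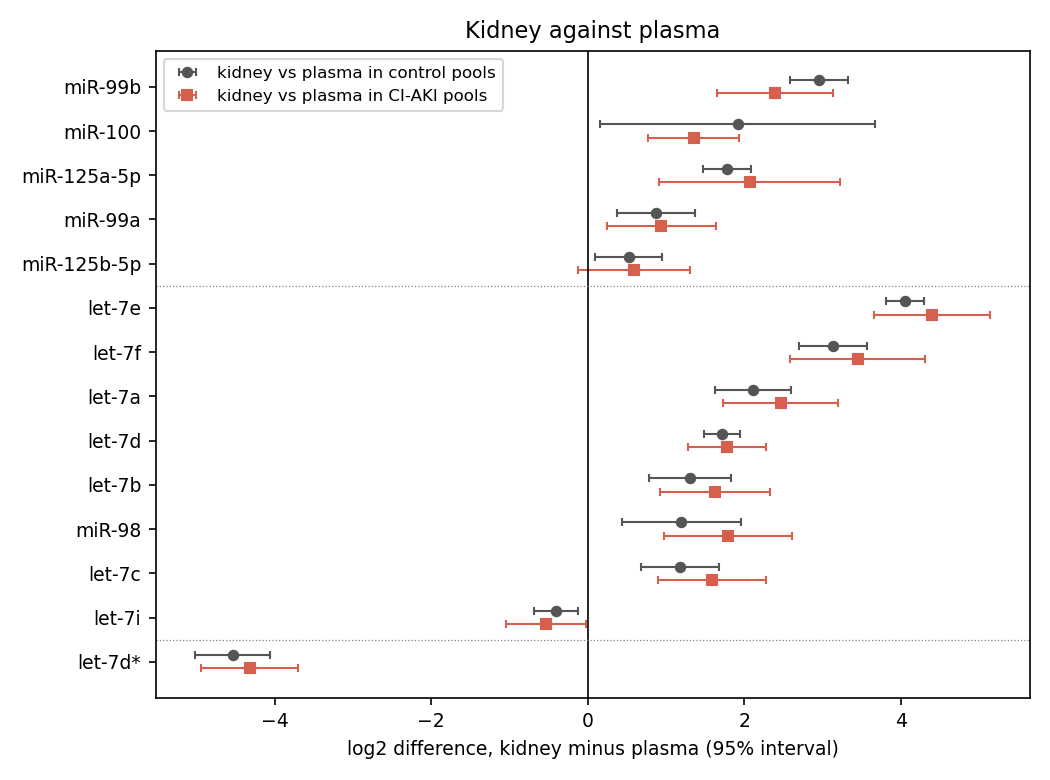
Log2 difference, kidney minus plasma, with limma's 95% interval, in control pools (circles) and CI-AKI pools (squares). The top block holds the 5 microRNAs encoded near let-7 genes, the middle block the 8 members from let-7e at 4.05 down to let-7i at -0.40 in control pools (a direction that other scalings turn), and the bottom row let-7d*, at -4.54.

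let-7e, let-7f and let-7a also led in rats given contrast medium, whose pools are separate samples on the same slides. In CI-AKI pools limma passed 7 of 8 members among 181 microRNAs tested (72.9% of all tested passed, 28.7% higher), with log2 differences of 4.40 for let-7e, 3.45 for let-7f, 2.47 for let-7a, 1.80 for miR-98, 1.78 for let-7d, 1.63 for let-7b and 1.59 for let-7c. Their SE ran from 0.22 to 0.38, about as large as the gaps between miR-98, let-7d, let-7b and let-7c, whose order is not resolved. let-7e gave 18.3, 33.1, 10.6 and 15.9 in plasma CI-AKI pools, the last not detected, against 339.8, 430.4, 369 and 377 in kidney. let-7f gave 216, 223, 106 and 444 against 2354, 2542, 2169 and 2494. For both, plasma pool 3 was low. let-7e and miR-98 were detected on all 4 CI-AKI arrays only in kidney, so both entered this test through kidney alone. The tissues did not overlap in 7 of 8 members, beside 72.4% of all tested. let-7i gave 386, 266, 383 and 482 in plasma and 236, 274, 251 and 266 in kidney, a log2 difference of -0.53 that missed the threshold (limma adjusted p = 0.0585, over alternatives 0.00362 to 0.446). Here plasma pool 2 lay among the kidney values. The median of the members was 1.79 against -0.53 over all microRNAs tested, and without the plasma CI-AKI pool 4 array the 7 differences were 1.78 to 4.47 and that of let-7i was -0.28. The planned normexp fit failed on plasma CI-AKI pools 1 and 4, where a few spots had local backgrounds of up to 25924 and 382281. Without the spots that the scanner software flagged for their background, normexp passed 6 of 8 members, beside 103 of 181 microRNAs tested. Normexp put let-7f (3.097) and let-7a (2.29) above let-7e (1.73). The share of higher calls over all microRNAs moved from 39.4% to 16.5% with it, against 60.3% with quantile normalization, 81.9% with no scaling, 59.0% with median scaling, 56.6% with the percentile over all microRNAs and 61.7% in the authors' deposited table.

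A measure that a single scaling factor per array cannot change, though background handling can, is the log2 signal of a member minus the mean of all 8 members on that array. It is a description, with no test, over 8 arrays of each tissue. The shifts of the 8 members between tissues cancel by construction, so upward shifts of some bring downward shifts of others. let-7b and let-7c thus shift downward here, although their signals were higher in kidney in the fits above. let-7e stood at -3.67 to -2.35 in plasma and -0.82 to -0.68 in kidney, 2.30 higher in kidney. let-7f moved the same way, from 0.20 to 1.14 in plasma to 1.87 to 1.97 in kidney. let-7i moved the other way, from 0.42 to 2.05 in plasma to -1.35 to -1.23 in kidney, 2.40 lower in kidney. For let-7a the shift was 0.36, for let-7b -0.46 and for let-7c -0.55, and in these 6 members the arrays of the tissues did not overlap. let-7d (-0.18) and miR-98 (-0.43) overlapped. Without the plasma pools 4 the shift of let-7e was 2.14, that of let-7f 1.47 and that of let-7i -2.48, and the same 6 members did not overlap. With normexp correction (flagged background spots left out) let-7f (1.72) and let-7i (-1.81) still did not overlap, while let-7e fell to 0.52 and overlapped and miR-98 moved to -1.42. Within an array, let-7e minus let-7i was -5.18 to -3.01 in plasma and 0.44 to 0.65 in kidney, a change of 4.70 on the log2 scale, or 4.62 without the plasma pools 4. With normexp correction the change was 2.33, with -2.82 to -0.31 in plasma and 0.40 to 0.60 in kidney, so the tissues did not overlap in either setting but the size of the change depended on the background correction.

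**Figure D3:**
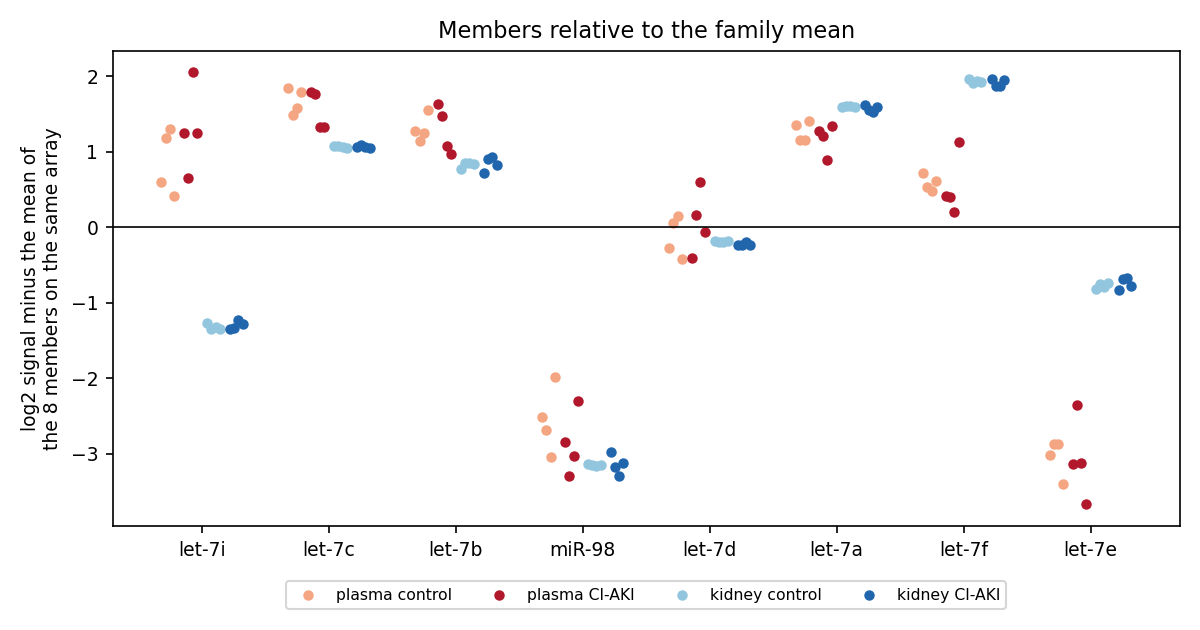
Log2 signal of each member minus the mean of the 8 members on the same array, 4 arrays in each of 4 groups, members ordered by the shift from plasma to kidney. let-7i lies lower and let-7e and let-7f lie higher in kidney without overlap, and the kidney arrays are tightly grouped.

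Members close in sequence ranged widely in how far apart their tissue differences lay. Of the 4 pairs of members that differ by 1 base, let-7b and let-7c were 0.083 apart in the kidney-minus-plasma difference, let-7a and let-7c 0.91, let-7a and let-7f 1.0005 and let-7a and let-7e 1.94. The largest gap of the 28 pairs, 4.70, was between let-7e and let-7i, which differ by 5 bases. The gaps depend on how background is handled. With normexp correction (flagged background spots left out) the gap of let-7e and let-7i was 2.33. let-7f and let-7i then lay further apart, with shifts of 1.72 and -1.81 relative to the family mean. let-7e (0.52) then lay below let-7a (0.90). These are descriptions of 8 members and not independent pairs.

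The microRNAs known to be encoded near let-7 genes were higher in kidney as well in this scaling. All 5 on this list passed limma's test in control pools, beside 77% of all tested. miR-99b, the neighbour of let-7e, was at 2.95, miR-100 at 1.92, miR-125a-5p at 1.78, miR-99a at 0.87 and miR-125b-5p at 0.52. miR-99a, miR-99b, miR-100 and miR-125a-5p were not detected on plasma control pool 4. They therefore entered this test through kidney alone, where they were higher. miR-99b gave 5.13, 7.26, 5.96 and 7.87 in plasma, of which the first and last were not detected, and 54.9, 51.3, 46.5 and 48.0 in kidney. The 3 microRNAs of the let-7e cluster therefore differed by 2.95, 4.05 and 1.78 in the order they lie on chromosome 1. miR-100 rested on a plasma control pool 4 array at the floor, with an SE of 0.76. Without that pool, and with the scaling set changed by leaving it out, all 5 passed. miR-99b was then at 3.62, miR-125a-5p at 2.30, miR-100 at 1.65, miR-99a at 1.25 and miR-125b-5p at 1.18. In CI-AKI pools 4 of the 5 passed, beside 72.9% of all tested, and miR-125b-5p did not (0.59, limma adjusted p = 0.119). There miR-99b, miR-100 and miR-125a-5p, not detected on plasma pool 4, again entered the test through kidney alone. The count was again 4 without plasma pool 4. With normexp correction 0 of the 5 passed limma's test in either comparison. Over all tested, 73 of 178 passed in control pools and, without flagged spots, 103 of 181 in CI-AKI pools. miR-99b (-0.28 and -0.47) and miR-100 (-0.84 and -0.91) turned direction, so the neighbours' higher level in kidney is not settled.

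Of the 4 opposite strands of let-7 hairpins on the array 1 could be tested, and it differed between the tissues in the direction opposite to its partner. let-7d*, RefSeq's let-7d-3p, comes from the same precursor as let-7d and carries another seed, shown in capitals for comparison with the members.

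let-7d*: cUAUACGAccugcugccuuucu

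let-7d* was detected on all 16 arrays. It gave 217, 217, 187 and 124 in plasma control pools and 7.46, 8.61, 6.77 and 8.64 in kidney control pools, so every kidney pool was far below every plasma pool. The log2 difference was -4.54 (SE 0.20, limma adjusted p = 2.67e-07), a 23.2-fold lower signal in kidney (17.8-fold without plasma control pool 4, and 7.55-fold with normexp correction), while let-7d from the same hairpin was 3.30-fold higher. In CI-AKI pools let-7d* differed by -4.32 (-4.33 without plasma pool 4 and -2.47 with normexp correction), with 103, 169, 220.2 and 108 in plasma and 6.70, 7.57, 7.38 and 6.91 in kidney. Within an array let-7d* minus let-7d was -0.84 to 0.65 in plasma and -6.54 to -6.11 in kidney, a change of -6.18, or -6.40 without the plasma pools 4 and -3.83 with normexp correction. Of its 4 probes, 3 gave -5.42, -4.45 and -4.47 in control pools, and the dimmest gave -1.99 with overlapping groups. The other 3 opposite strands were near background: let-7i* was detected on no array, let-7e* on some arrays of each group, and let-7b* on 3 of 4 plasma control arrays and no kidney control array, at least 8.88-fold lower in kidney (the plasma mean against the kidney bound), or 3.99-fold without plasma control pool 4. In CI-AKI pools let-7b* was detected on 3 of 4 kidney arrays and on plasma pools 2 and 4. How the processing of the hairpin or cross-reaction of the probes bears on the strand contrast was not tested.

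Contrast medium was the treatment under study, and in kidney no member passed limma's test 8 h after it, beside 1.7% of the 176 microRNAs tested (6.25% at an unadjusted p under 0.05, 0 of 8 members). let-7d, with the largest difference, gave 1219, 1176, 1292 and 1225 in control and 1127, 1199, 1088 and 1176 in CI-AKI pools, and the groups overlapped. Its log2 difference was -0.10 (SE 0.06, limma adjusted p = 0.917). let-7e, with the smallest, gave 785, 797, 851 and 837 in control and 745, 872, 780.2 and 809 in CI-AKI pools, a log2 difference of -0.03. All 8 means were lower after contrast medium, as were 39.8% of all tested, with a median of -0.06 against 0.03 over all microRNAs tested. Within slide row 1, which held pools 1 and 2, the members differed by -0.04 to 0.065, and within row 2 by -0.18 to -0.05. In row 2 the lower values lay mainly in pool 3. let-7a gave 4491 in control and 3601 in CI-AKI pool 3, but 4224 and 4197.5 in the pools 4. miR-98 gave 165 and 127 in the pools 3, and 157 and 160 in the pools 4. The kidney CI-AKI pool 3 array had a total microRNA signal of 59735, against 116820 to 124853 on the other kidney CI-AKI arrays. These members were measured tightly: on the log2 scale their within-group SD had a median of 0.080, against 0.132 over all microRNAs tested. limma's 95% intervals over the 8 members ran from -0.26 to 0.15, a decrease of at most 16.7% or an increase of at most 10.8%, before any allowance for multiple testing. Neither let-7d* nor any of the 5 neighbouring microRNAs passed limma's test in kidney (0 of them at an unadjusted p under 0.05). let-7b*, near background and not tested, was detected on 3 of 4 kidney CI-AKI arrays and no kidney control array. Its CI-AKI mean was at least 1.48-fold the control bound, and the groups overlapped.

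In plasma the intervals were several times wider and no member passed limma's test, beside 0% of the 96 microRNAs tested (5.21% at an unadjusted p under 0.05, 0 of 7 members). let-7e was not tested there, since it was not detected on all 4 arrays of either group. let-7a gave 261, 179.5, 186 and 329 in control and 212, 191, 86.3 and 246 in CI-AKI pools, a log2 difference of -0.44 (SE 0.37, limma adjusted p = 0.941). The groups overlapped, with CI-AKI pool 3 lowest and control pool 4 highest. let-7b, at 247, 178, 199 and 363 against 272, 229, 98.0 and 192, showed the same low and high pools, with a difference of -0.36. miR-98 gave 17.9, 12.5, 10.2 and 31.1 against 12.1, 8.42, 5.67 and 19.8, the last not detected, with a difference of -0.66 (SE 0.46, limma adjusted p = 0.941). In all 4 same-numbered pairs of plasma pools miR-98 was lower after contrast medium, by -0.56, -0.57, -0.85 and -0.65 on the log2 scale, which held for 1 of the 7 tested members beside 8.33% of all tested. With the pool number as a block its SE was 0.22 and limma's p was 0.0149 before and 0.319 after adjustment, so the threshold was missed. The pairs hold different rats and were inferred from these same arrays, so the blocked p is descriptive. Its 2 probes differed: the brighter gave -0.86, and the dimmer gave 0.19, with -0.55, -0.69 and -0.76 in pairs 1 to 3 and 2.74 in pair 4. With normexp correction the difference was 0.05. let-7i was the 1 tested member with a higher mean, at 154, 183, 206 and 165 against 209, 129.7, 193 and 232, with a difference of 0.08. let-7e gave 12.6, 11.1, 11.4 and 11.7 against 9.92, 16.2, 5.31 and 7.65, with the pools 4 not detected. Of the 7 tested members 6 had a lower mean after contrast medium, beside 59.4% of all tested. Their median was -0.40 against -0.09 over all microRNAs tested, and 95% intervals, from the fit without the block, ran from -1.67 to 0.67.

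**Figure D4:**
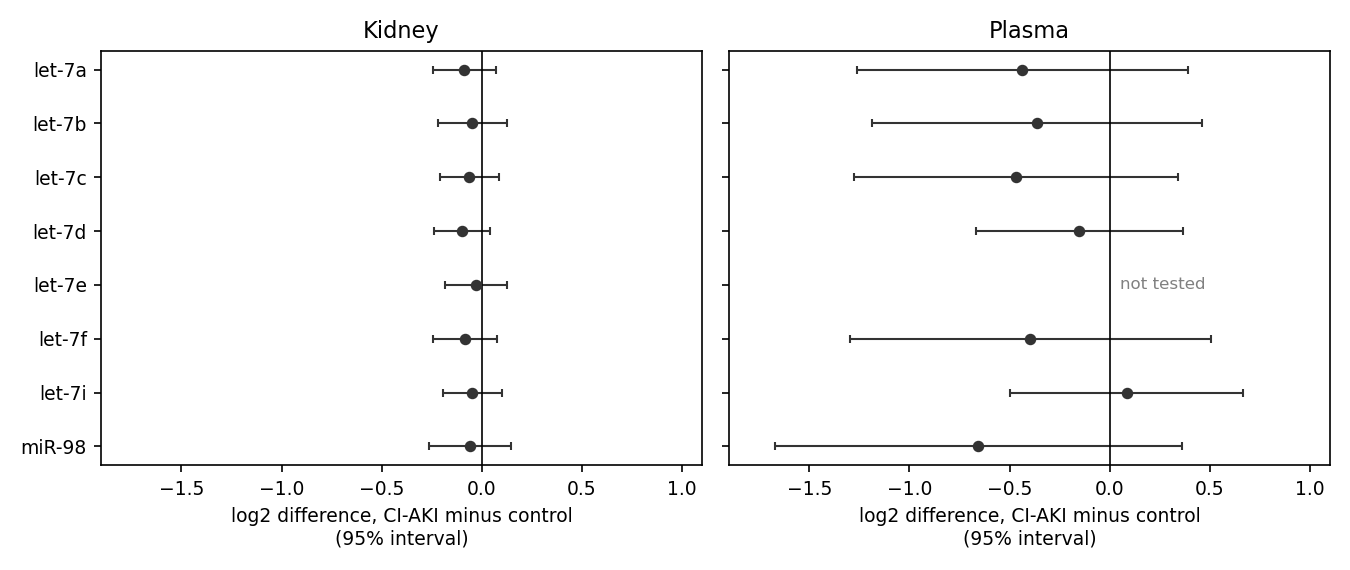
Log2 difference, CI-AKI minus control, with limma's 95% interval for each member in kidney (left) and plasma (right) on the same axis. Every interval spans 0, and the intervals in plasma are several times as wide as those in kidney. The fits shown leave out the pool number. With it as a block in plasma the interval of miR-98 was -1.15 to -0.16, before any allowance for multiple testing. The block intervals of all other tested members spanned 0. The 2 probes of miR-98 gave -0.86 and 0.19.

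CI-AKI pool 3 carried much of the plasma differences of let-7a, let-7b, let-7c and let-7f. Without CI-AKI pool 3 the differences of let-7a, let-7b, let-7c and let-7f were -0.11, -0.06, -0.16 and -0.05, and that of miR-98 was -0.37. Leaving out that pool also leaves the control pool of the same number without a match. Without both pools 4 the differences were -0.19 for let-7a, 0.08 for let-7b, -0.10 for let-7c, 0.05 for let-7d, -0.33 for let-7f, 0.20 for let-7i and -0.41 for miR-98. The scaling then rests on another set of microRNAs, and these values share an upward shift. The median over all 182 microRNAs tested there was 0.26. At the unchanged scaling the pair of pools 4 differed by -0.92 for let-7b and -0.80 for let-7c. It differed by -0.42 for let-7a, -0.65 for miR-98, 0.01 for let-7d, 0.18 for let-7f and 0.50 for let-7i. The treatment effect did not differ between tissues past the threshold for any of the 7 members tested: the interaction in limma's fit over 16 arrays was -0.18 to 0.55 on the log2 scale, with adjusted p of 0.929 to 0.991, beside 1.15% of the 87 microRNAs tested.

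Members moved together from pool to pool in plasma, apart from let-7i. Over the 8 plasma arrays the Pearson correlation of a member with the mean of the others was 0.997 for let-7a, 0.93 for let-7c, 0.91 for let-7f, 0.89 for let-7b and 0.85 for miR-98. It was 0.53 for let-7e, 0.50 for let-7d and -0.23 for let-7i. Over the 6 plasma arrays other than the pools 4 it was 0.83 for let-7e, 0.59 for let-7d, -0.14 for let-7i and 0.86 to 0.997 for the rest. In kidney it was 0.60 to 0.97 for all 8. Over the 28 pairs of members the median correlation was 0.55 in plasma and 0.71 in kidney, against 0.035 and 0.15 over pairs of other microRNAs detected on all 8 arrays. In plasma these medians were 0.82 and 0.13 without the pools 4. Arrays share their scaling and depth across members, and members share sequence, so these are descriptions. Outside the family, the microRNAs most like the family mean in plasma, of 68 compared, were miR-30e* (0.74), miR-345-5p (0.64), miR-140 (0.59), miR-664 (0.55) and miR-483 (0.54), which without the pools 4 were 0.75, 0.59, 0.64, 0.37 and 0.19. In kidney, of 155 compared, they were miR-365 (0.92), miR-196a (0.85), miR-183 (0.85), miR-96 (0.80) and miR-135a (0.76).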

How the data were processed

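Members and lists were chosen with earlier results of these data known. Per the file headers, the authors' deposited scanner files hold a background-corrected intensity for each spot, as Agilent's Feature Extraction software wrote it (version 10.7.3.1). The authors also deposited a log2 table, used as an alternative; its columns share a median of 2.28 and near-equal quantiles, which are those of quantile-normalized values, but how it was made is not stated in any label or header. Here spot intensities without outlier flags were averaged per probe, then per microRNA, scaled to each array's 75th percentile over microRNAs detected on all arrays of the comparison, raised to a floor (the lowest signal called detected, as its median across arrays) and taken to log2. MicroRNAs detected on all 4 arrays of at least 1 group were tested with limma 3.58.1 (R 4.3.3; lmFit, eBayes, two-sided, Benjamini-Hochberg, threshold 0.05), after the code was tested on simulated data. The normexp alternative (offset 50) used the median signal, not the mean signal named in the plan, and was repeated without spots flagged for their local background after it failed on 2 arrays. No probe was saturated, and 4 pools per group limit the precision. Named microRNAs are the members, opposite strands, cluster neighbours, markers and, per tissue, the 5 most correlated with the family mean. Same-numbered plasma pools deviated together (r of 0.22, 0.49, 0.62 and 0.60 for the numbers in the titles), and by the rule used the numbers were taken as pairs in plasma. Kidney pools did not (-0.10 to 0.59). The pairing is thus drawn from these same data. Same-numbered plasma pools also lay side by side on the slide, and the numbers 4 are the 2 dim arrays, so number and array position cannot be told apart. The figures were drawn with matplotlib.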

Additional observations from a re-analysis of the deposited data

How the results depend on the processing

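With the replicate block, 0, 0, 8, 7 and 0 members passed in the kidney, plasma, control-pool tissue, CI-AKI-pool tissue and interaction fits, the same counts as without the block. Over all microRNAs tested the block passed 3 of 176, 0 of 96, 135 of 178, 132 of 181 and 1 of 87. In kidney against plasma, 7 or 8 members passed whichever pool was left out. Over all 178 to 203 microRNAs tested in control pools, 53 to 81 then passed as higher and 75 to 102 as lower. In CI-AKI pools, over 181 to 196 tested, 49 to 63 passed as higher and 76 to 91 as lower. Normexp background correction left 6 passing in control pools, beside 73 of 178 microRNAs tested, and miR-98 turned to -0.18 there. The planned normexp fit failed on plasma CI-AKI arrays 1 and 4: corrected values spanned 363 to 1235 on the first and 65.8 to 65.9 on the second, so its values from CI-AKI plasma (4 passing in CI-AKI pools, miR-98 at -0.78, and those below) say nothing about stability. Normexp was repeated without the spots flagged for their background, an alternative chosen after seeing the data. It then left 6 passing in CI-AKI pools, beside 103 of 181 microRNAs tested. It gave miR-98 -0.15 there and 0.051 in plasma, with interactions of -0.088 for let-7d and -0.082 for miR-98. let-7i, kidney against plasma, was 0.15 (quantile), 1.62 (no scaling), 0.15 (percentile over all microRNAs), 0.20 (median scaling) and 0.14 (without both plasma pools 4) in control pools, and -0.46 to 0.14 with 1 pool left out. In CI-AKI pools it was 1.59 with no scaling, 0.20 with the percentile over all microRNAs and 0.35 with median scaling. Here and below, differences without a plasma pool 4 array include the shift from the changed scaling set.

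No treatment or interaction value passed under any alternative, and those below had no settled direction. In kidney, let-7e was 0.00033 with the percentile over all microRNAs. With 1 pool left out, let-7b was -0.092 to 0.0014, let-7e -0.071 to 0.0044 and miR-98 -0.11 to 0.013. In plasma, the failed normexp fit gave 0.42 for let-7d, 0.019 for let-7f and 0.78 for miR-98, and median scaling 0.065 for let-7d. let-7i was -0.056 with no scaling and -0.061 with the percentile over all microRNAs. Without both pools 4, let-7b was 0.080 and let-7d 0.049, and let-7d was -0.22 to 0.0053 with 1 pool left out. The interaction of let-7d was -0.0024 with quantile normalization, -0.12 with median scaling, -0.57 with the failed normexp fit, -0.096 with the total gene signal, -0.081 with the brightest probe, -0.065 in the authors' deposited table and -0.12 without both pools 4. With the failed normexp fit it was -0.067 for let-7b, -0.15 for let-7f and -0.81 for miR-98; let-7b was -0.10 without both pools 4, and let-7i 0.045 with the percentile over all microRNAs. With 1 pool left out the interaction was -0.050 to 0.46 for let-7a, -0.12 to 0.44 for let-7b, -0.20 to 0.11 for let-7d and -0.091 to 0.57 for let-7f. The cause of the other changes was not tested. The lowest detected signals on the plasma pools 4, 20.9 and 18.4, limit what those arrays show of let-7e and miR-98.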
